A study of Mus musculus with 18 samples.

Results

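Human chromosome 21 corresponds to 3 stretches of the mouse genome, on mouse chromosomes 16, 17 and 10. The Dp16 mouse, a model of trisomy 21, carries a duplication of the chromosome 16 stretch in all of its cells and leaves the orthologs on chromosomes 10 and 17 at the normal 2 copies. The genes described here are 42 of these orthologs outside the duplicated segment, taken from a list of gene names with the condition that the gene lies on chromosome 10 or 17. No measured value entered that rule, but the set, like the partner and marker lists used below, was proposed with earlier results of these data known. They are 29 genes on chromosome 10 and 13 on chromosome 17, of 55385 genes in the count table. Expression was measured by sequencing polyA RNA from whole kidney of 18 mice, in 3 groups of 6 with 3 males and 3 females each. The control group was wild-type C57BL/6J. The other groups were Dp16 and its derivative Dp16 2xIFNRs, in which the labels describe the dosage of the interferon receptors, whose genes lie in the duplicated segment, as normalized. All animals were untreated and 17.1 to 18 weeks old. In the labels' descriptions, 5 numbers are each carried by animals of more than 1 group, 11 animals in all; what such a number stands for is not given in the sources used here, nor is whether animals were littermates. P-values measure the spread between these 18 samples.

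The members do a wide range of jobs. Several act in one-carbon and sulfur amino acid metabolism, in which the kidney takes part beside the liver. Cbs, cystathionine beta-synthase, moves homocysteine towards cysteine, Ftcd breaks down histidine-derived formiminoglutamate and passes its one-carbon unit to folate, Slc19a1 carries reduced folate into cells, and Pdxk makes pyridoxal phosphate, the cofactor of Cbs. Other members build the extracellular matrix, mark leukocytes, assemble ribosomes and process RNA, attach ubiquitin or SUMO, organise the centrosome, or handle lipids and sugar phosphates. On build GRCm38 the chromosome 10 members spanned chr10:76207222-78464975, from Prmt2 to Pdxk, and the chromosome 17 members spanned chr17:30954640-32062865, from Umodl1 to Rrp1b.

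Counts are given as CPM, that is per unit of library size after TMM scaling. Library totals were 42157790 to 57814587 counts, and mitochondrial genes took 6.34% to 10.88% of each library. The 42 members together took 0.228% to 0.272% of a library's counts. Markers of proximal tubule, the main cell type of kidney cortex, summed to between 8271 and 13168 CPM in every library, so the defining markers of kidney were present. Adrenal markers summed to 62.7 CPM in wild-type replicate 5 and to at most 7.41 CPM in every Dp16 or Dp16 2xIFNRs library; Cyp11b2, a defining adrenal gene, was at 0 in 17 of 18 libraries. A gene was called changed at a Benjamini-Hochberg adjusted p under 0.05 over all 17575 genes tested, by the quasi-likelihood test of edgeR with sex as a covariate.

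Levels per length spanned several orders of magnitude among the members. Highest was Pttg1ip, a membrane protein that binds securin, at 128.6 ± 8.38 RPKM (mean ± SD over 18 libraries), followed by the cysteine protease inhibitor Cstb at 84.8 ± 11.2 RPKM. The acyltransferase Agpat3 followed at 74.6 ± 4.69 RPKM and the ribosome assembly factor Rrp1 at 58.4 ± 2.75 RPKM. In this order only Pttg1ip and Cstb, and Agpat3 and Rrp1, were neighbours whose ranges over 18 libraries did not overlap. Of the 42 members, 16 reached a mean of 10 RPKM, and 6 were below 1 RPKM, all on the authors' RPKM scale. Of the 40 members tested, 23 lay above 3.56 RPKM, the median of all genes tested. At the low end were Trpm2, a cation channel of leukocytes, at 0.0867 ± 0.0346 RPKM and Ubash3a, a regulator of T cell receptor signalling, at 0.0416 ± 0.0218 RPKM. The plot of levels per length shows this order.

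**Figure D1:**
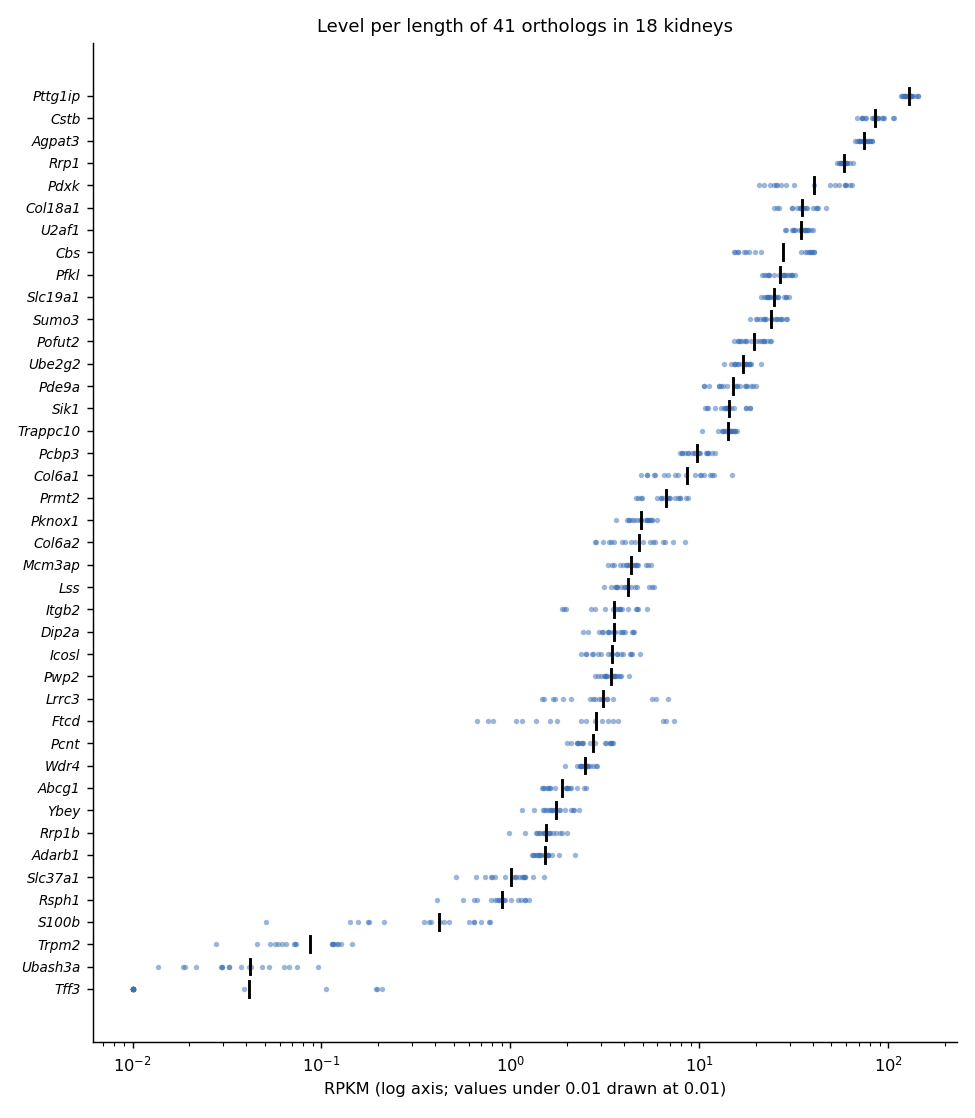
Level of 41 members in RPKM on a log axis, 1 point per library and a bar at the mean of 18 libraries; Umodl1, at 0 in all libraries, is not drawn, and values under 0.01 are drawn at 0.01. Pttg1ip leads at 128.6 RPKM, the points of Cbs and Pdxk fall into separate clusters, and Tff3 sits at or near 0.

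The filter on low counts removed 2 members. Tff3, a secreted peptide that protects epithelial surfaces, had no more than 5 counts in any library and was at 0 in every Dp16 library. Umodl1, a relative of uromodulin, had 0 counts in all 18 libraries, which allows at most 0.0519 to 0.0712 CPM per library at 3 counts. The remaining 40 members were tested, 29 on chromosome 10 and 11 on chromosome 17.

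The members did not show the shift of the triplicated genes. Against wild-type, the median log2 fold of the 40 members was -0.01 in Dp16 and 0.04 in Dp16 2xIFNRs, next to -0.01 and 0.01 over all 17575 genes. The 115 tested genes of the chromosome 16 segment had a median log2 fold of 0.52 in both comparisons. Both comparisons share the wild-type samples. In Dp16, 19 members had a positive log2 fold and 21 a negative one, and the middle 50% of members lay between -0.10 and 0.14. Each gene was also tested with edgeR against a fold of 3 to 2, the ratio of the copy numbers in the segment. In Dp16, 33 of the 40 members lay below that fold and 0 above it, where 73.2% of all genes tested lay below and 0.654% above. In Dp16 2xIFNRs it was again 33 below and 0 above, where 74.5% of all genes lay below and 0.495% above. Of the 115 segment genes, 13 lay below and 11 above in Dp16, and 15 below and 8 above in Dp16 2xIFNRs. The share of members below 3 to 2 was 82.5% in each comparison.

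The members not separated from 3 to 2 in Dp16 were Itgb2, Col6a1, Col6a2, Trpm2, Rsph1, Ubash3a and S100b. In Dp16 2xIFNRs they were Itgb2, Col6a1, Col6a2, Trpm2, Rsph1, Ubash3a and Slc37a1. Some of these had wide intervals: the cilium gene Rsph1 was at 0.38 on the log2 scale (95% interval -0.08 to 0.84) and Ubash3a at 0.15 (-0.77 to 1.07) in Dp16.

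**Figure D2:**
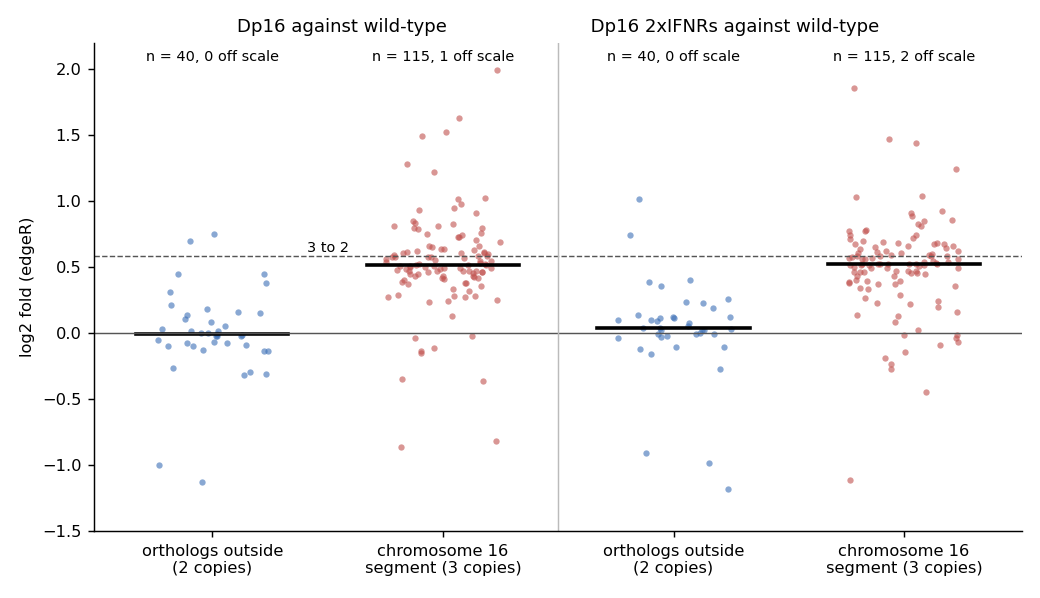
Log2 fold against wild-type (edgeR) of the 40 tested members and the 115 tested genes of the chromosome 16 segment, 1 point per gene, with a bar at the median and a dashed line at 3 to 2. The members centre on medians of -0.01 and 0.04 and the segment genes on 0.52; 1 and 2 segment genes lie off the scale.

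Among the members, 5 of 40 were called in Dp16 against wild-type, 2 higher and 3 lower, where 4.23% of all genes tested were called (3.17% higher, 1.06% lower). In Dp16 2xIFNRs against wild-type, 4 of 40 were called, 2 higher and 2 lower, where 4.79% of all genes tested were called (3.17% higher, 1.61% lower). At an unadjusted p under 0.05 the counts were 12 and 11 of 40, where 17.1% and 18.2% of all genes reached it. Every called member was among the 29 on chromosome 10. Of the 11 chromosome 17 members, edgeR called 0 in either comparison, with 1 of 11 at an unadjusted p under 0.05 in each. With so few members and the shares over all genes given above, 0 of 11 shows no difference between the chromosomes. The called members were Lrrc3, Ftcd and Pdxk, which were lower, and Itgb2, Col6a1 and Trpm2, which were higher. Lrrc3, Ftcd and Itgb2 were called in both comparisons, 3 of 40 members, where 2.7% of all genes tested were called in both in 1 direction. In both sexes separately, mutants and wild-type did not overlap for 5 members in Dp16 (Lrrc3, Ftcd, Pdxk, Itgb2 and Prmt2) and 4 in Dp16 2xIFNRs (Lrrc3, Ftcd, Pdxk and Itgb2), where 3.41% and 4.85% of all genes tested did so.

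**Figure D3:**
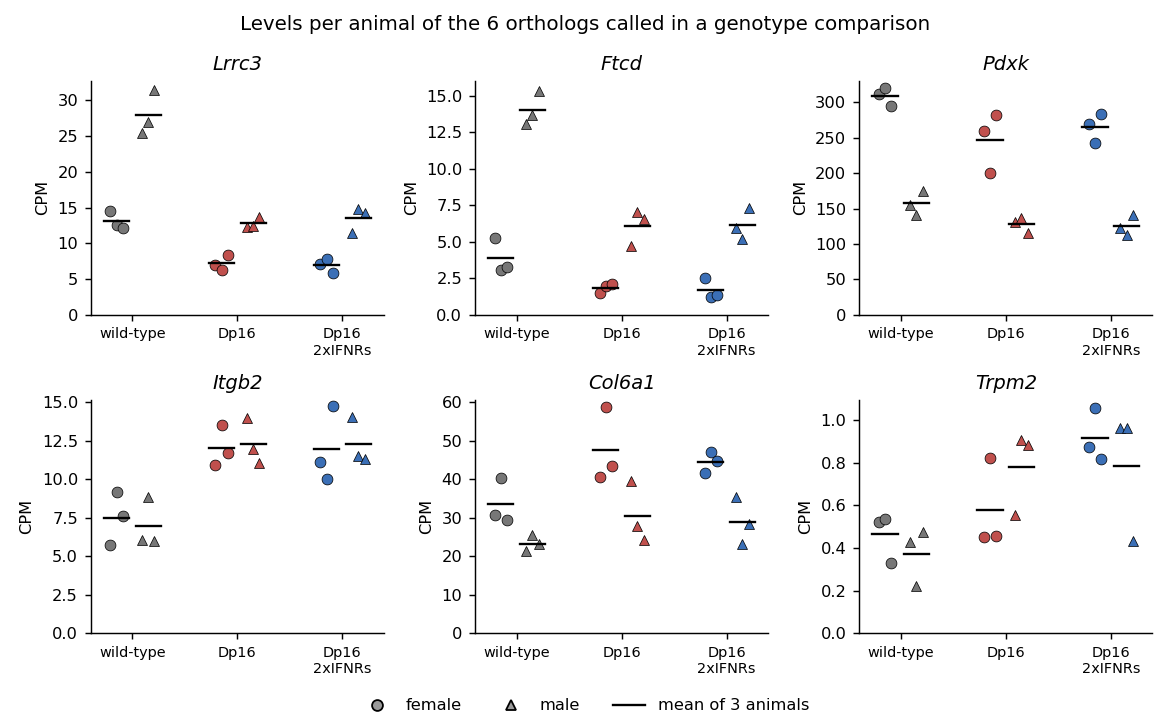
CPM in every animal for the 6 members called in a genotype comparison, females as circles and males as triangles, with a bar at the mean of 3 animals; each panel has its own axis from 0. Lrrc3 and Ftcd of both mutant groups lie below the wild-type animals of the same sex, and Itgb2 of both mutant groups lies above all wild-type animals.

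Lrrc3, a small membrane protein with leucine-rich repeats (chr10:77897575-77902536, minus strand, GRCm38), fell by about 1 on the log2 scale in both groups that carry the duplication. In wild-type kidneys the 3 females had 14.5, 12.5 and 12.2 CPM and the 3 males 25.5, 27.0 and 31.4 CPM. In Dp16 the females had 7.01, 6.22 and 8.41 CPM and the males 12.2, 12.4 and 13.7 CPM. In Dp16 2xIFNRs the females had 7.08, 7.86 and 5.89 CPM and the males 11.5, 14.8 and 14.3 CPM. Within each sex, all mutant animals were below all wild-type animals, whereas with the sexes pooled the groups overlapped, since mutant males reached the level of wild-type females. The log2 fold was -1.0 ± 0.10 (SE) in Dp16 (edgeR adjusted p 5.1e-06) and -0.98 ± 0.10 in Dp16 2xIFNRs (edgeR adjusted p 8.28e-06), with 6 animals per group.

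Ftcd (chr10:76575648-76590338, plus strand) fell by more than 1 on the log2 scale in both groups. Wild-type females had 5.26, 3.05 and 3.28 CPM and wild-type males 13.1, 13.7 and 15.3 CPM. Dp16 females had 1.52, 1.99 and 2.09 CPM and Dp16 males 4.68, 7.05 and 6.57 CPM. Dp16 2xIFNRs females had 2.54, 1.23 and 1.37 CPM and males 5.96, 5.18 and 7.30 CPM. Again no mutant animal reached the lowest wild-type animal of its sex. The log2 fold was -1.13 ± 0.17 in Dp16 (edgeR adjusted p 0.000695) and -1.18 ± 0.17 in Dp16 2xIFNRs (edgeR adjusted p 0.000552).

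Both Lrrc3 and Ftcd also differed strongly by sex, and their calls rest on modelling it. Without the sex covariate, edgeR's adjusted p was 0.106 and 0.114 for Lrrc3 and 0.422 and 0.392 for Ftcd, in Dp16 and Dp16 2xIFNRs. In the other 26 of 27 alternatives, the loss of each library among them, both genes were called in both comparisons.

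The promoters of these 2 genes, the members that fell furthest, are shown because they differ in make-up. Each run is 300 bases from RefSeq (GRCm38.p6), 250 before to 50 after the annotated start, read 5′ to 3′ on the gene's strand. Capitals mark matches on either strand to 6 motifs that were searched. The GC box, bound by Sp family factors, was spelled GGGCGG. The letters of the core promoter element known as the TATA box were TATAAA. For the HNF1 half-site, named for a factor of kidney and liver epithelium, they were GTTAAT. The site of the myeloid factor PU.1 was searched as GAGGAAGT. The E-box was CACGTG, and the nuclear receptor half-site was searched as AGGTCA. No match overlaps another in the promoters printed here.
Ftcd: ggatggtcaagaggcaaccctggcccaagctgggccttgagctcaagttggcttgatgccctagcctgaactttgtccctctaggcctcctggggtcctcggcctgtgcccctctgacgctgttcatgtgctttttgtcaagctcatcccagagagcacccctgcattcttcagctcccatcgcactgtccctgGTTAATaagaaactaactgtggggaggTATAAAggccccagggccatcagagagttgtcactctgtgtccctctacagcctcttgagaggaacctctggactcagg
Lrrc3: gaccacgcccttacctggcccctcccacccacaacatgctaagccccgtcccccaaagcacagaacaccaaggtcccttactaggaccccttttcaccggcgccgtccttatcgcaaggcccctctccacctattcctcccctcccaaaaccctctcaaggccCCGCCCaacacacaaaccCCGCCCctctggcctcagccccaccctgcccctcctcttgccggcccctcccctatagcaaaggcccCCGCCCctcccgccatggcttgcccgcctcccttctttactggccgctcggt

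The Ftcd promoter (chr10:76575398-76575697, plus strand) holds a TATA box and an HNF1 half-site and only 3 CpG dinucleotides; 32.3% of the 27025 promoters in the table hold as few. The Lrrc3 promoter (chr10:77902487-77902786, minus strand) holds 3 GC boxes, 14 CpG dinucleotides and no match to the other 5 motifs. Over all 27025 promoters, 35.6% held a GC box, 14.1% a TATA box, 7.25% an HNF1 half-site, 3.29% a PU.1 site, 7.09% an E-box and 16.2% a nuclear receptor half-site. RefSeq promoters were matched for 31 of the 42 members. Where a gene had several, members took the one nearest the GENCODE start, and the shares over all promoters took the first by position. RefSeq promoters of members and of all genes were thus not chosen alike. Of those, 22 held a GC box, and 3 each held a TATA box (Ftcd, Prmt2 and Trpm2), an HNF1 half-site (Ftcd, Pttg1ip and Umodl1), an E-box (Cbs, Pdxk and Trappc10) and a nuclear receptor half-site (Pdxk, Pttg1ip and Sumo3). None of the 31 held the PU.1 letters. These matches describe the letters of the windows and do not show that a factor binds there.

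Around Ftcd, 1 unlisted neighbour moved in the same direction. Gm15343, a long non-coding RNA gene on the minus strand whose annotation ends 5115 bases before the Ftcd start, had 4.72 ± 2.16 CPM in wild-type, 2.46 ± 1.62 in Dp16 and 3.15 ± 1.81 in Dp16 2xIFNRs (SD, n = 6). Its log2 fold was -1.08 ± 0.17 in Dp16 (edgeR adjusted p 0.00117) and -0.63 ± 0.17 in Dp16 2xIFNRs (edgeR adjusted p 0.0394). On chromosome 17 the non-coding gene Gm15318 fell in Dp16 2xIFNRs, at -0.67 ± 0.14 on the log2 scale (adjusted p 0.00906 in edgeR). The lens crystallin gene Cryaa, another ortholog in that interval, rose there at a low level, from 0.984 ± 0.603 to 1.86 ± 0.568 CPM (0.98 ± 0.26 on the log2 scale, adjusted p 0.038 by edgeR). Neither was called in Dp16, where Gm15318 was at -0.49 ± 0.14 (edgeR adjusted p 0.0591) and Cryaa at 0.85 ± 0.27 (edgeR adjusted p 0.0754). In all, 1 of the 26 other tested genes of the 2 intervals was called in Dp16 and 3 in Dp16 2xIFNRs. Trpm2, whose annotation begins 5185 bases beyond that of Lrrc3, had positive log2 folds, given below.

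The other one-carbon and vitamin genes moved less. Pdxk, whose locus overlaps 4921516A02Rik on the other strand, was lower in Dp16 in both sexes. Wild-type females had 312.1, 319.5 and 294.2 CPM and Dp16 females 258.8, 199.5 and 281.8 CPM; wild-type males had 155.5, 141.2 and 175.1 CPM and Dp16 males 130.5, 136.7 and 115.7 CPM. Within each sex the groups did not overlap. The log2 fold was -0.31 ± 0.08 in Dp16 (edgeR adjusted p 0.0346) and -0.27 ± 0.08 in Dp16 2xIFNRs (edgeR adjusted p 0.0607). The Dp16 call was lost in 9 of 27 alternatives. Of these, 7 left out a library (wild-type replicate 1, 2, 4 or 5 or Dp16 replicate 1, 3 or 6), with edgeR adjusted p of 0.054 to 0.081; the others fitted only the 2 groups compared (edgeR adjusted p 0.0581) or dropped the sex covariate (edgeR adjusted p 0.823). In Dp16 2xIFNRs a call was gained in 8 of 27. They were DESeq2, the other size factors (RLE), no filter or a filter on average level, the block on sample number, the fit of only the 2 groups, and the loss of wild-type replicate 3 or Dp16 replicate 3, with adjusted p from edgeR or DESeq2 of 0.0145 to 0.0465.

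Cbs and Slc19a1 did not pass the test. Cbs had 180.6 ± 80.7 CPM in wild-type, 170.2 ± 74.8 in Dp16 and 180 ± 85.7 in Dp16 2xIFNRs (SD, n = 6), with females and males in separate clusters. Its log2 fold was -0.08 in Dp16 (95% interval -0.23 to 0.08) and -0.02 in Dp16 2xIFNRs (-0.18 to 0.13). Slc19a1, which overlaps Col18a1 on the other strand, was at -0.01 and -0.10. Among 13 partner genes of the folate and methionine cycles, 2 were called in Dp16, both lower. They were Ahcy, which hydrolyses S-adenosylhomocysteine, at -0.25 ± 0.07 (edgeR adjusted p 0.043) and the mitochondrial serine hydroxymethyltransferase Shmt2 at -0.28 ± 0.08 (edgeR adjusted p 0.046). In Dp16 2xIFNRs, 0 of the 13 were called by edgeR, with 4 at an unadjusted p under 0.05. Of 6 proximal tubule markers, 5 had log2 folds below 0 in Dp16, with a median of -0.18, and 3 were at an unadjusted p under 0.05, while edgeR called 0. In Dp16 2xIFNRs edgeR also called 0 of the 6, with 1 at an unadjusted p under 0.05 and a median of -0.02. Their sums overlapped, at 9940 to 13168 CPM in wild-type, 8271 to 11531 in Dp16 and 8862 to 12996 in Dp16 2xIFNRs, and no marker was at 0 in all libraries of a group. Their part in the one-carbon results was not tested.

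Itgb2, the beta chain shared by the leukocyte integrins, rose in both groups. Wild-type libraries had 5.70 to 9.14 CPM (median 6.81), Dp16 libraries 10.9 to 13.9 CPM (median 11.8) and Dp16 2xIFNRs libraries 9.98 to 14.7 CPM (median 11.4). Every mutant animal lay above every wild-type animal. Itgb2 was the only member of 40 whose groups of 6 did not overlap, in each of the 2 comparisons, where 1.3% and 1.56% of all genes did so. The log2 fold was 0.75 ± 0.13 in both comparisons (edgeR adjusted p 0.0022 and 0.00204), and it was called in all 27 alternatives of each.

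Of 8 tested immune partner genes, 2 were called higher in Dp16 and 4 in Dp16 2xIFNRs, and none of the 8 was called lower by edgeR in either. The alpha chains Itgal and Itgam, which pair with Itgb2 in LFA-1 and Mac-1, had log2 folds of 0.74 ± 0.16 and 0.94 ± 0.21 in Dp16 (edgeR adjusted p 0.0129 and 0.0138). In Dp16 2xIFNRs they were at 0.74 ± 0.16 and 0.86 ± 0.21 (edgeR adjusted p 0.0107 and 0.0217). There the alpha chain Itgax (0.73 ± 0.18) and the integrin ligand Icam1 (0.32 ± 0.08) were called as well, with edgeR adjusted p of 0.0267 and 0.0291.

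Leukocyte markers moved with these genes. Of 6 macrophage markers, 5 were called higher in Dp16 and 4 in Dp16 2xIFNRs. Their summed level was 122.1 to 161.3 CPM in wild-type, 178 to 214.5 in Dp16 and 163.9 to 224 in Dp16 2xIFNRs, without overlap between wild-type and either mutant group. Of 7 lymphocyte markers, 4 and 2 were called higher, with sums of 9.08 to 15.5, 19.3 to 26.7 and 18.2 to 23.8 CPM. Of 4 tested neutrophil markers, 1 was called higher in each comparison, Csf3r, which had 16 to 104 counts per library. The neutrophil gene Ly6g was at 0 in 16 of 18 libraries. In bulk tissue, more cells of a type and more RNA per cell cannot be told apart, and the part of these markers in the Itgb2 result was not tested.

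The other immune members were less clear. Trpm2, which opens on oxidative stress, was at 0.221 to 0.535 CPM in wild-type (median 0.449), 0.451 to 0.906 in Dp16 (median 0.689) and 0.431 to 1.05 in Dp16 2xIFNRs (median 0.919). The lowest Dp16 2xIFNRs animal lay inside the wild-type range and the other 5 above it. Its log2 fold was 1.02 ± 0.29 in Dp16 2xIFNRs (edgeR adjusted p 0.0458) and 0.70 ± 0.29 in Dp16 (edgeR adjusted p 0.206). These values rest on 12 to 53 counts per library. The call was lost in 18 of 26 alternatives, among them the removal of any 1 of 13 libraries (wild-type replicates 1, 2, 3, 4 and 6; Dp16 replicates 1, 3 and 5; Dp16 2xIFNRs replicates 1 to 5), with edgeR adjusted p of 0.0506 to 0.101.

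Icosl, the ligand of the T cell costimulator ICOS, was at 0.21 ± 0.09 (edgeR adjusted p 0.194) and 0.14 ± 0.09 (0.441) on the log2 scale in Dp16 and Dp16 2xIFNRs. Ubash3a was at 0.15 ± 0.44 and 0.24 ± 0.44, on 6 to 41 counts per library, with a 95% interval of -0.68 to 1.15 in Dp16 2xIFNRs.

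Of the 2 collagen VI members, edgeR called Col6a1 higher in Dp16 and called neither in Dp16 2xIFNRs. Col6a1 and Col6a2 encode chains of the beaded microfibrils that surround cells. Col6a1 was at 21.4 to 40.3 CPM in wild-type (median 27.5), 24.3 to 58.9 in Dp16 (median 40.1) and 23.2 to 47.0 in Dp16 2xIFNRs (median 38.5). The groups overlapped, and within females all 3 mutants of each group were above the wild-type maximum, against 2 of 3 in males. The log2 fold of Col6a1 was 0.45 ± 0.12 in Dp16 (edgeR adjusted p 0.0439) and 0.36 ± 0.12 in Dp16 2xIFNRs (edgeR adjusted p 0.107). The Dp16 call was lost in 13 of 27 alternatives, 10 of them the removal of a single library (wild-type replicate 1, 2, 4 or 6, Dp16 replicate 1 or 3, Dp16 2xIFNRs replicate 2, 4, 5 or 6), with edgeR adjusted p of 0.0515 to 0.124.

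Col6a2 had 18.2 to 33.3 CPM in wild-type (median 21.9), 21.0 to 48.4 in Dp16 (median 31.5) and 18.2 to 41.8 in Dp16 2xIFNRs (median 30.7). Its log2 fold was 0.45 ± 0.14 in Dp16 (edgeR adjusted p 0.0773) and 0.40 ± 0.14 in Dp16 2xIFNRs (edgeR adjusted p 0.117). Its highest wild-type value came from replicate 5, the library with the adrenal markers. It was called in Dp16 in 4 of 27 alternatives: without that library or without Dp16 replicate 2 (edgeR adjusted p 0.0436 to 0.0488), with no filter on low counts (edgeR adjusted p 0.0258) and with DESeq2 (adjusted p 0.032). Col18a1, the basement membrane collagen that releases endostatin, was at -0.05 ± 0.09 and -0.01 ± 0.09. Pofut2, which adds fucose to thrombospondin repeats, was at 0.11 ± 0.06 and 0.04 ± 0.06.

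Of 11 matrix partner genes, 2 were called higher in Dp16 and 3 in Dp16 2xIFNRs. The basement membrane genes Col15a1 (log2 fold 0.49 ± 0.11 and 0.51 ± 0.11) and Nid1 (0.40 ± 0.10 and 0.39 ± 0.10) were called by edgeR in both, with adjusted p of 0.0129 and 0.0082 for Col15a1 and 0.0308 and 0.0308 for Nid1. Another collagen VI chain, Col6a6, was called in Dp16 2xIFNRs at 1.02 ± 0.29 (edgeR adjusted p 0.0483). Of 6 stromal markers, edgeR called 1 higher in Dp16 and 0 in Dp16 2xIFNRs, with median log2 folds of 0.35 and 0.27. Of these 6, 5 in Dp16 and 3 in Dp16 2xIFNRs were at an unadjusted p under 0.05. Their sums overlapped, at 280.5 to 424.7 CPM in wild-type, 320.4 to 603.8 in Dp16 and 254.4 to 553.5 in Dp16 2xIFNRs. Of 5 fat markers, edgeR called 1 higher in Dp16, with a median log2 fold of 0.43, and 1 lower in Dp16 2xIFNRs, with a median of 0.08. Of these 5, 4 in Dp16 and 1 in Dp16 2xIFNRs were at an unadjusted p under 0.05. Their sums overlapped as well, at 307 to 410.6, 384 to 642.5 and 230.5 to 449.3 CPM in wild-type, Dp16 and Dp16 2xIFNRs. The called markers, named after their values were seen, were the collagen gene Col3a1 (0.62 ± 0.16, edgeR adjusted p 0.0332), the adipocyte hormone gene Adipoq (0.60 ± 0.16, edgeR adjusted p 0.0438) and, lower, the brown fat gene Ucp1 (-2.26 ± 0.58, edgeR adjusted p 0.0291). No marker of either list was at 0 in all libraries of a group, and their part in the collagen result was not tested.

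No member with a role in RNA processing or ribosome assembly was called by edgeR in a genotype comparison. The 10 such members had median log2 folds of -0.02 in Dp16 and 0.04 in Dp16 2xIFNRs. Rrp1 had 112.1 to 120 CPM in wild-type, 112.1 to 119.5 in Dp16 and 111.8 to 120.8 in Dp16 2xIFNRs, and the intervals of its log2 folds ran from -0.09 to 0.09 in Dp16 and -0.09 to 0.08 in Dp16 2xIFNRs. The splicing factor U2af1, which reads the 3′ splice site, was at 0.03 ± 0.06 and 0.03 ± 0.06. Prmt2, an arginine methyltransferase, was the nearest to a call, at 0.32 ± 0.11 in Dp16 (edgeR adjusted p 0.0982) and 0.23 ± 0.11 in Dp16 2xIFNRs (edgeR adjusted p 0.254). Its Dp16 animals lay above the wild-type animals of their sex, and it was called in both comparisons without Dp16 2xIFNRs replicate 4 (edgeR adjusted p 0.0115 and 0.0121). The RNA editing enzyme Adarb1 was at -0.02 ± 0.11 and 0.12 ± 0.11. Of 14 tested partners of this role, 0 were called in Dp16 and 1 in Dp16 2xIFNRs, the poly(C)-binding protein gene Pcbp2 at -0.17 ± 0.05 (edgeR adjusted p 0.0411).

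Lipid and sugar genes among the members also had no call in either comparison with wild-type. Lss, lanosterol synthase of the cholesterol pathway, was at -0.10 ± 0.12 and 0.10 ± 0.12. Its partner Cyp51, the lanosterol demethylase of the next step, was called lower in both comparisons. Cyp51 had 375.5 ± 18.2 CPM in wild-type, 266.6 ± 64.5 in Dp16 and 263.4 ± 37.0 in Dp16 2xIFNRs (SD, n = 6), with log2 folds of -0.52 ± 0.09 in each (edgeR adjusted p 0.00322 and 0.00274). It was the 1 call among 17 tested partners of this role in each comparison. Agpat3, at 0.02 ± 0.05 and 0.06 ± 0.05, and the liver-type phosphofructokinase Pfkl, at 0.09 ± 0.05 and 0.10 ± 0.05, had narrow intervals around small changes. The sugar phosphate exchanger Slc37a1 was at 0.16 ± 0.16 and 0.39 ± 0.16, and the sterol exporter Abcg1 at -0.14 ± 0.10 and 0.12 ± 0.10.

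The remaining members were not called. The ubiquitin-conjugating enzyme Ube2g2 was at 0.18 ± 0.07 in Dp16 (edgeR adjusted p 0.182) and Sumo3 at 0.14 ± 0.09. Cstb itself was at 0.00 ± 0.09 in Dp16, while Ctss, a cysteine protease that cystatins inhibit and that is abundant in macrophages, was the 1 called partner of 10 and rose by 0.79 ± 0.13 (edgeR adjusted p 0.00118). In Dp16 2xIFNRs Ctss was at 0.78 ± 0.13 (edgeR adjusted p 0.00139) and Cstb at -0.16 ± 0.09. The centrosome scaffold Pcnt was at -0.29 ± 0.12 in Dp16 (edgeR adjusted p 0.224) and -0.03 ± 0.12 in Dp16 2xIFNRs. The salt-inducible kinase Sik1 was at -0.27 ± 0.10 in Dp16 (edgeR adjusted p 0.139) and was called in 1 of 27 alternatives, without wild-type replicate 3 (edgeR adjusted p 0.0384). The calcium-binding protein gene S100b, whose end overlaps that of Dip2a on the other strand, was at -0.31 ± 0.48 and -0.91 ± 0.49, with an interval of -1.93 to 0.12 in Dp16 2xIFNRs. These values rest on 4 to 67 counts per library.

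**Figure D4:**
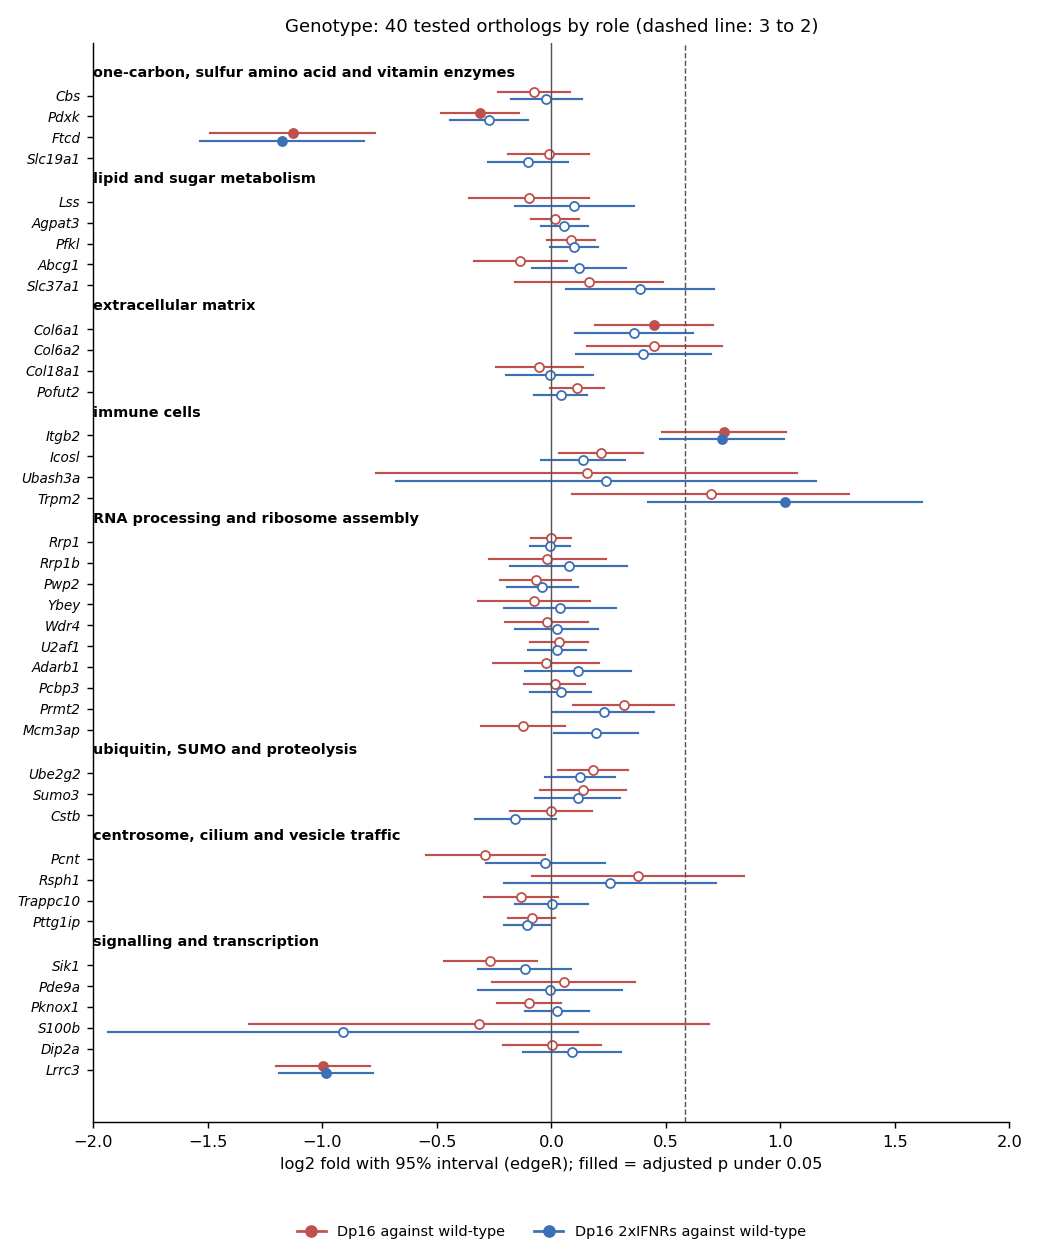
Log2 fold with its 95% interval (edgeR) of the 40 tested members, by role, in Dp16 (red) and Dp16 2xIFNRs (blue) against wild-type; filled points have an adjusted p under 0.05. Most points lie near 0, Lrrc3 and Ftcd lie near -1 in both comparisons, and Itgb2 lies at 0.75 in both.

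The comparison of the 2 mutant groups asks what the dosage of the interferon receptors changes. Between Dp16 2xIFNRs and Dp16, edgeR called 0 of the 40 members, where 0.0171% of all genes tested were called. DESeq2 also called 0. At an unadjusted p under 0.05 there were 3 members, where 4.71% of all genes reached it. They were Mcm3ap, a nuclear mRNA export factor, at 0.32 ± 0.09, Abcg1 at 0.25 ± 0.10 and Pcnt at 0.26 ± 0.12. Mcm3ap was at 20.3 to 28.8 CPM in Dp16 and 28.0 to 34.3 CPM in Dp16 2xIFNRs, and these ranges overlapped. The groups of 6 overlapped for all 40 members, where 0.0797% of all genes did not overlap, and in both sexes separately 0 members were without overlap, where 0.364% of all genes were. Of the members called against wild-type, 5 were within 0.1 of 0 on the log2 scale here. Lrrc3 was at 0.01 (95% interval -0.19 to 0.22), Itgb2 at -0.01 (-0.27 to 0.26), Ftcd at -0.05 (-0.41 to 0.32) and Pdxk at 0.04 (-0.13 to 0.21). Col6a1 was at -0.09 (-0.35 to 0.17). Trpm2, at 0.32 (-0.26 to 0.91), had the highest log2 fold of the 40 members here, with a wide interval. Changes within those intervals cannot be told from none with 6 animals per group.

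Many members differed between the sexes, as did many of all genes tested. Between 9 males and 9 females, with genotype in the model, 18 of the 40 members were called, 9 higher and 9 lower in males, where 38.8% of all genes tested were called (19% higher, 19.7% lower). At an unadjusted p under 0.05 there were 22, where 46.5% of all genes reached it. The groups of 9 did not overlap for 7 members, where 9.41% of all genes did so. These were Cbs, Pcbp3, Pknox1, U2af1 and Agpat3, higher in males, and Pdxk and Pofut2, lower in males.

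In the one-carbon group the sexes differed in opposite directions. Cbs was at 92.3 to 124.8 CPM in females and 219.5 to 270.6 CPM in males, higher by 1.26 ± 0.06 on the log2 scale (adjusted p 2.37e-12 in edgeR). Pdxk, which makes its cofactor, was at 199.5 to 319.5 CPM in females and 113 to 175.1 CPM in males, at -1.0 ± 0.07 on the log2 scale (adjusted p 3.23e-10 in edgeR). Ftcd was higher in males by 1.80 ± 0.14 on the log2 scale (edgeR adjusted p 3.9e-09) and Lrrc3 by 0.96 ± 0.08 (edgeR adjusted p 8.44e-09). For both genes, all 3 males were above all 3 females within each of the 3 groups, although the pooled 9 males and 9 females overlapped. Of the 13 one-carbon partners, 7 were called higher and 2 lower in males, where 19% of all genes tested were called higher and 19.7% lower.

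The promoters of Cbs and Pdxk are shown as those of the 2 members that differed most between the sexes without overlap. They follow the same conventions as those above.
Cbs: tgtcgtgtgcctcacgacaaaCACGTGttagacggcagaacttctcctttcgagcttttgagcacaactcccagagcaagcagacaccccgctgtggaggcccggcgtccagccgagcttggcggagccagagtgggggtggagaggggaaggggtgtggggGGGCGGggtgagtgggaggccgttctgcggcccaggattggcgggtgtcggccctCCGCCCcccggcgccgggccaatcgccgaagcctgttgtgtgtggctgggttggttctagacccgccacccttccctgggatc
Pdxk: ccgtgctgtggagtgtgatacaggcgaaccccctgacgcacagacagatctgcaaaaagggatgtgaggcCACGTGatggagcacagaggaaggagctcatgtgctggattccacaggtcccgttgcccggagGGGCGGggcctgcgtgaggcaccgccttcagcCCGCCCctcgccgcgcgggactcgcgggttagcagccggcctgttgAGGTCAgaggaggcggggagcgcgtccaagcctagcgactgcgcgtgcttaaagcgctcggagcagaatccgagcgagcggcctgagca

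Both hold an E-box and 2 GC boxes, and neither holds a TATA box or an HNF1 half-site. The Cbs promoter (chr17:31637156-31637455, minus strand) has 22 CpG dinucleotides and the Pdxk promoter (chr10:78464899-78465198, minus strand) has 28. The median was 7 over all promoters and 20 over the 31 member promoters. The Pdxk window also holds a nuclear receptor half-site, which 16.2% of all promoters hold.

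All 4 members listed under the matrix role, the collagen genes Col6a1, Col6a2 and Col18a1 and the fucose-adding enzyme gene Pofut2, were lower in males. Col6a1 was at 29.6 to 58.9 CPM in females and 21.4 to 39.5 CPM in males (log2 fold -0.59 ± 0.10, edgeR adjusted p 9.21e-05), and Col6a2 was at -0.54 ± 0.12 (edgeR adjusted p 0.000873). Pofut2 (-0.26 ± 0.05) and Col18a1 (-0.24 ± 0.07) had edgeR adjusted p of 0.000113 and 0.0149. All 6 stromal markers were called lower in males as well, with sums of 368 to 603.8 CPM in females and 254.4 to 482 CPM in males. So were 4 of 5 endothelial and 4 of 4 podocyte markers, where 19.7% of all genes tested were called lower in males. The part of these markers in the matrix result was not tested.

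Of the other 10 members called by sex, 6 were higher and 4 lower in males. Higher in males were the RNA-binding protein gene Pcbp3 (log2 fold 0.45 ± 0.05), the homeobox gene Pknox1 (0.42 ± 0.05), U2af1 (0.34 ± 0.05), Agpat3 (0.21 ± 0.04), Sumo3 (0.29 ± 0.07) and the vesicle tethering gene Trappc10 (0.18 ± 0.06). Lower in males were Icosl (-0.40 ± 0.07), Pfkl (-0.20 ± 0.04), Slc37a1 (-0.33 ± 0.13) and Dip2a (-0.21 ± 0.08). Slc37a1 lost its call with no filter on low counts or without any 1 wild-type animal (edgeR adjusted p 0.0503 to 0.0924). The removal of Dp16 replicate 1, 2, 3, 4 or 5 or of Dp16 2xIFNRs replicate 1 or 5 did so too. Dip2a lost it with no filter, with age as a covariate or without any 1 of many libraries (edgeR adjusted p 0.0536 to 0.0996). These libraries were wild-type replicates 1, 3, 5 and 6, Dp16 replicates 1, 2, 4 and 5 and Dp16 2xIFNRs replicates 1 to 4. It also lost it in limma with the shared description number as a random block (limma adjusted p 0.0588). Trappc10 lost it without wild-type replicate 2, Dp16 replicate 1 or Dp16 2xIFNRs replicate 5 (edgeR adjusted p 0.0516 to 0.0604). Itgb2, the 1 member whose groups of 6 did not overlap between wild-type and mutants, was at -0.01 ± 0.10 between the sexes.

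**Figure D5:**
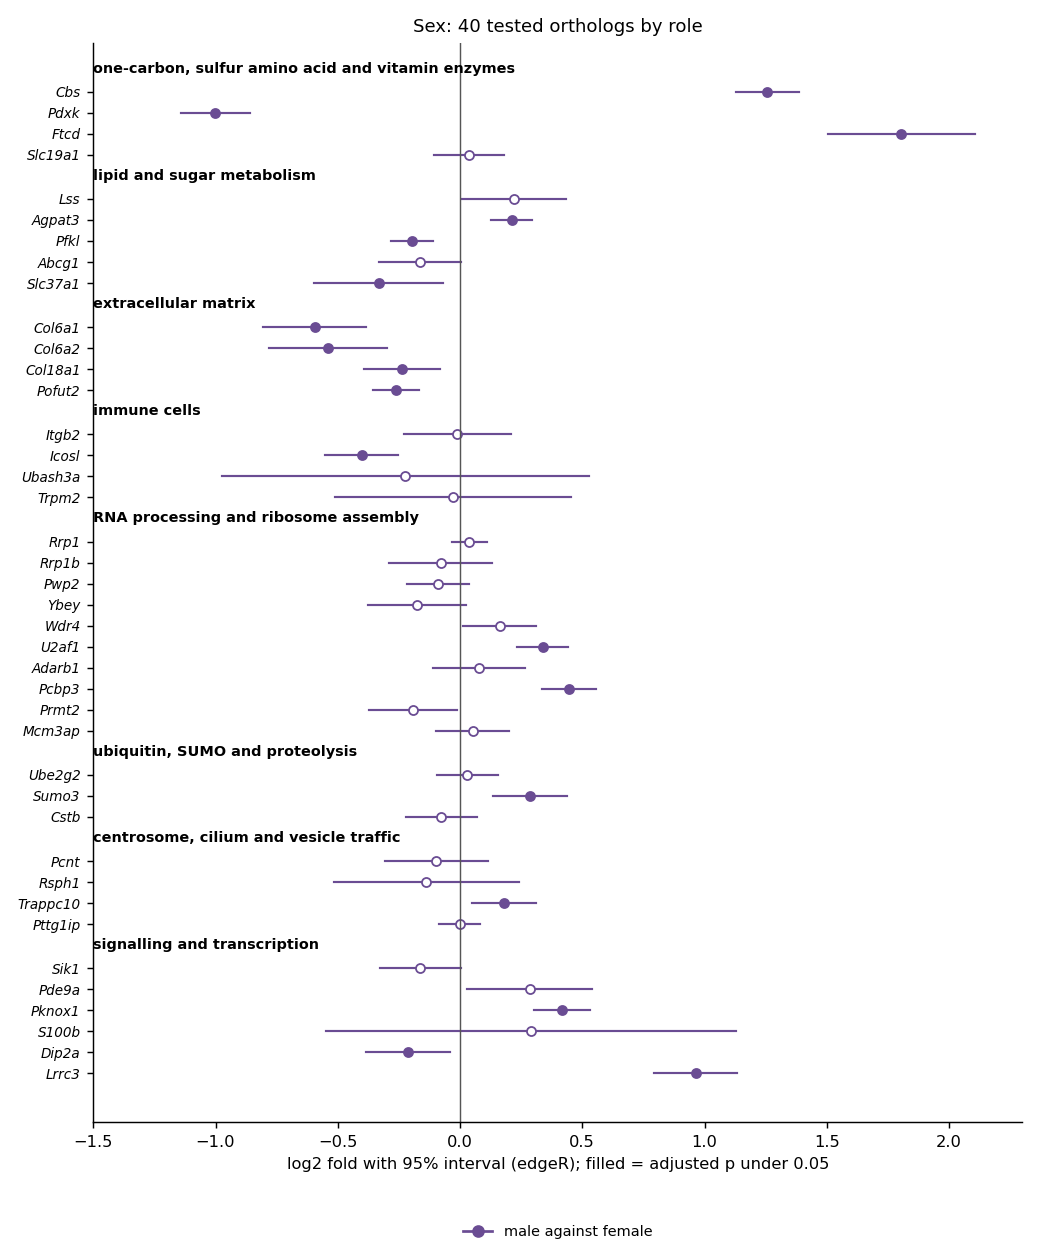
Log2 fold of males against females with its 95% interval (edgeR) of the 40 tested members, by role; filled points have an adjusted p under 0.05. Ftcd (1.80), Cbs (1.26) and Lrrc3 (0.96) lie furthest to the male side and Pdxk (-1.0) furthest to the female side. All 4 members listed under the matrix role lie on the female side.

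No dependence of a genotype difference on sex was detectable with 3 animals per sex and group. In a test of the interaction of genotype and sex, edgeR called 0 of the 40 members, where 0.0114% of all genes tested were called. The lowest p among the members was that of U2af1, at 0.0238 unadjusted in edgeR, with an adjusted p of 0.929; it was the 1 member under 0.05 unadjusted, where 4.92% of all genes were. The fold of Ftcd from mean CPM was -1.05 in females and -1.20 in males for Dp16, and -1.17 and -1.19 for Dp16 2xIFNRs, on the log2 scale. For Lrrc3 it was -0.86 and -1.13 in Dp16 and -0.91 and -1.05 in Dp16 2xIFNRs. For Itgb2 it was 0.69 and 0.83 in Dp16 and 0.67 and 0.82 in Dp16 2xIFNRs. In each of these the sexes moved in the same direction, with all 3 mutant animals of a sex outside the wild-type range. Not all members did so. U2af1 was at 0.19 in females and -0.12 in males for Dp16, and at 0.12 and -0.06 for Dp16 2xIFNRs. S100b was at 0.58 and -1.04 for Dp16, and at 0.00 and -1.67 for Dp16 2xIFNRs, on low counts.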

How the data were processed

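PolyA RNA of whole kidney was sequenced from 18 mice. Per the labels' protocols, libraries were strand-specific and paired-end. HISAT2 2.1.0, HTSeq 0.6.1, SAMtools 1.5 and the genome build GRCm38 are named in the submitters' processing notes. Whether HTSeq used strand is not given in the sources used here, so overlapping genes on opposite strands are uncertain. The authors deposited raw counts per gene, without normalization, and RPKM values per gene, whose derivation is not stated.

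Counts of 18 libraries entered 1 quasi-likelihood fit in edgeR 4.0.16 (R 4.3.3) with group and sex, TMM scaling, and edgeR's filter by group (minimum count 10, minimum total 15), which kept 17575 of 55385 genes. P-values were adjusted over all genes tested, at a threshold of 0.05. The null of 3 to 2 was set by adding the log of 1.5 to the offset of the mutant libraries. CPM are TMM-scaled, and the biological coefficient of variation was 16.8%. RPKM served only to compare levels between genes. The count test was tested on simulated data before use. Alternatives used DESeq2 1.42.0, limma 3.58.1, other scalings, filters, covariates and blocks, and each library left out. All 153 pairs of libraries differed beyond counting noise, with a chi-square of at least 19.8 per degree of freedom. Sample numbers were not taken to pair the animals. Positions came from GENCODE M21 annotation of GRCm38, for 55144 genes; promoters came from RefSeq.

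All 42 members may be named. Role partners and other orthologs are named where called in a genotype comparison, as are unlisted neighbours (up to 6 per comparison) and, of marker lists, defining genes at 0. A few other markers, called or detected, are named after their values were seen. The members were set by gene name and chromosome and not by any value, but this set, like the partner and marker lists, was proposed with earlier results of these data known.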

Additional observations from a re-analysis of the deposited data

Results flagged for a closer look

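In 6 of 120 combinations of a member and a group of 6, 1 library stood apart by Dixon's criterion; chance alone gives about 1 in 20, or 6. Adarb1 was highest in Dp16 2xIFNRs replicate 4, at 14.2 CPM. Sumo3 was highest in wild-type replicate 3, at 96.2 CPM. Lss was highest in Dp16 replicate 1, at 26.6 CPM. Trappc10 was lowest in Dp16 2xIFNRs replicate 5, at 62.6 CPM. In wild-type replicate 5, the library with adrenal markers at 62.7 CPM, Col6a2 was highest at 33.3 CPM and Ubash3a was highest at 0.707 CPM. None of these 6 members was called in a genotype comparison.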

How the results depend on the processing

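No result of a member in any of the 4 comparisons reversed a call. Over 4144 recomputations of a gene and comparison, 4041 kept their side of the threshold, 76 lost and 27 gained a call. A change of sign in a gene that was called in neither fit was counted as kept. Without the sex covariate, edgeR called 1 member in Dp16 and 1 in Dp16 2xIFNRs against wild-type, and 190 and 234 of all genes; the cause was not tested. Fitting only wild-type and Dp16 left 453 genes called in Dp16. DESeq2 called 1236 and 1287 genes, and 6 and 5 members. Leaving out 1 library gave 3 to 6 members and 429 to 815 genes in Dp16, and 3 to 4 members and 526 to 920 genes in Dp16 2xIFNRs. The Dp16 count fell to 3 members without wild-type replicate 1, 2 or 4 or Dp16 replicate 1 or 3; Dp16 gene counts moved by over 1.5 times without wild-type replicate 4 (478) or Dp16 replicate 1 (462) or 3 (429), and Dp16 2xIFNRs gene counts without wild-type replicate 1 (526) or Dp16 2xIFNRs replicate 1 (552). The same removals gave 32 to 34 members below 3 to 2 in Dp16, 33 to 34 in Dp16 2xIFNRs, 15 to 21 members called by sex, and 0 in the interaction and between the mutant groups. With the sample number as a replicate block, edgeR called 5, 4 and 0 members and 910, 945 and 3 genes in the 3 genotype comparisons. In Dp16 2xIFNRs Trpm2 lost its call and Pdxk gained one. Correlations of the 18 same-number pairs ran from -0.17 to 0.20 (median 0.006), with 7 over 0.1. Those of 90 pairs of other number and group ran from -0.22 to 0.21 (median -0.01), with 14 over 0.1. Of the 18 libraries, 7 correlated best with their own number. With the number that animals of different groups share in the labels' descriptions as a random block, limma called 5, 4 and 0 members and 828, 992 and 3 genes. Depth limits Trpm2, Ubash3a and S100b, at 4 to 67 counts per library, and leaves Tff3 and Umodl1 untested.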
